A study of Mus musculus with 24 samples.

Results

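Choroid plexus of wild-type (WT) mice aged 5-6 months was compared with that of WT mice aged 3 months, on the 4 arrays titled WT at 5-6 months and the 3 arrays titled WT at 3 months, which are 7 of the 24 arrays of the study. Each array held total RNA from 1 animal, and the number that ends the title is used here as the animal's number: 3, 10, 17 and 24 at 5-6 months, and 1, 15 and 22 at 3 months. The other 17 arrays are J20 animals at 3, 5-6 and 11-12 months (titled AD) and WT animals at 11-12 months. J20 is a line known to express mutant human APP from a PDGF promoter, and it enters below only as the other genotype with the same age step. No source used here gives strain, sex, litters or the hour of dissection, and the older group spans a range of ages. The limma p-values and intervals measure the spread between arrays of separate animals as labelled, pooled over the groups of all 24 arrays. They do not rest on the 7 WT arrays alone, as the exact permutation tests do.

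The choroid plexus is a sheet of secretory epithelium in the brain ventricles that makes cerebrospinal fluid and forms the barrier between blood and that fluid. Under the epithelium lies a stroma with fenestrated capillaries, fibroblasts and macrophages. The tissue is also known for a strong circadian clock: CLOCK or NPAS2 pairs with BMAL1 (gene Arntl) to drive genes such as Per1, Per2, Nr1d1, Nr1d2, Dbp, Tef and Ciart from E-box elements, PER and CRY proteins repress that drive, and the nuclear receptors NR1D1 and NR1D2 repress Arntl, Npas2 and Nfil3.

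Among the 10 higher and 10 lower genes with the smallest p, the clock genes Ciart and Dbp differed most between the ages, with or without background correction. Ciart, Dbp, Tef and Per2 lay lower at 5-6 months than on every 3-month array, and Arntl, Clock, Nfil3 and Npas2 lay higher than on every 3-month array. Beside them stood a small set of genes outside the clock, among them Serpina1b, Prom2, Cdh3 and Xbp1 on the higher side and Arhgap24, Pcdh7 and Ndn on the lower side. None of these passed the test across all probes: 0 of 11464 tested probes (0%) had an adjusted p under 0.05 in limma, and the smallest adjusted p was 0.11. At an unadjusted p under 0.05 there were 295 probes (2.57%), 147 higher (1.28%) and 148 lower (1.29%). With the BeadChip (the glass slide that carries 8 arrays) as a block, 2 probes passed (0.0174%), one for Ciart and one for Serpina1b. The sample titles do not name the BeadChip. Which arrays shared a slide was assumed from the order of the samples in runs of 8 arrays. BeadChips 1, 2 and 3 below are these assumed groups.

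A count that does not use the variance model was made beside the test. On 295 probes (2.57%) the 4 values at 5-6 months did not overlap the 3 values at 3 months, 133 of them (1.16%) higher and 162 (1.41%) lower. By gene, with 1 probe for each of 8232 genes, 232 (2.82%) did not overlap: 101 (1.23%) lay above and 131 (1.59%) below all 3-month arrays. Differences are given below as log2 intensity at 5-6 months minus log2 intensity at 3 months, and intensities are not comparable between probes. The size of a difference at a dim probe depends on the background correction: without it Ciart, given below as -2.45, was -0.93, Arntl was 0.33 in place of 1.24 and Prom2 0.34 in place of 0.98, while the bright probe of Dbp gave -1.74 in place of -1.80.

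The labelled tissue matched its markers. Ttr, which encodes transthyretin, the main secreted protein of the epithelium, ran from 14.96 to 15.08 in log2 intensity at 5-6 months (n = 4) and from 14.92 to 15.08 at 3 months (n = 3). Kl, Folr1, Aqp1, Otx2 and Clic6 were detected on 7 of 7 arrays like Ttr, and the other 4 epithelial markers chosen have no probe under their symbol here. The 9274 to 10565 detected probes at 5-6 months and 9367 to 10680 at 3 months overlapped (exact permutation p = 0.943, 2-sided). Median intensities overlapped as well (p = 0.971 in the same exact test), and the smallest p that 4 against 3 arrays allow is 0.0286.

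One library stood apart. The array of 3-month animal 15 had Pearson r over probes of 0.912 to 0.937 with 5 of the other 6 arrays and 0.972 with 5-6-month animal 10, while the 21 pairs ranged from 0.912 to 0.991. These arrays also had the highest scores on the first principal component, 32.2 for animal 10 and 68.3 for animal 15, against -24.3 to -10.7 on the other 5-6-month arrays and -32.3 to -19.9 on the other 3-month arrays. The component held 63% of the variance and its scores overlapped between the ages (exact permutation p = 0.743, 2-sided). A probe of Kl, which encodes the epithelial protein Klotho, was low on animals 10 and 15, and on animal 17 as well: 9.55, 6.14, 7.26 and 9.60 at 5-6 months (animals 3, 10, 17 and 24), against 10.14, 6.23 and 10.13 at 3 months (animals 1, 15 and 22). The brighter probe of Kl ran only from 13.72 to 14.03 at 5-6 months and from 13.42 to 13.90 at 3 months. Without animals 15 and 10 the difference between the ages was -2.48 for Ciart, -1.76 for Dbp, 1.04 for Serpina1b and 1.04 for Prom2, none past the adjusted threshold.

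Of 22 clock genes on the array 17 were tested, and 0 passed the adjusted threshold. The median difference of the 17 was -0.17, against -0.0042 over all genes tested, with 5 genes above 0 and 12 below. Above all 3-month arrays lay 4 of the 17, where 1.23% of all genes did, and below all of them lay 4, where 1.59% did. At the unadjusted threshold 3 of 17 were higher, where 1.24% of all genes were, and 6 of 17 were lower, where 1.34% were. Without animal 15 the list median was 0.009. The list mixes genes known to peak at opposite phases, so its median says little of its members. The plot of clock genes by animal shows the members with the clearest separation.

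**Figure D1:**
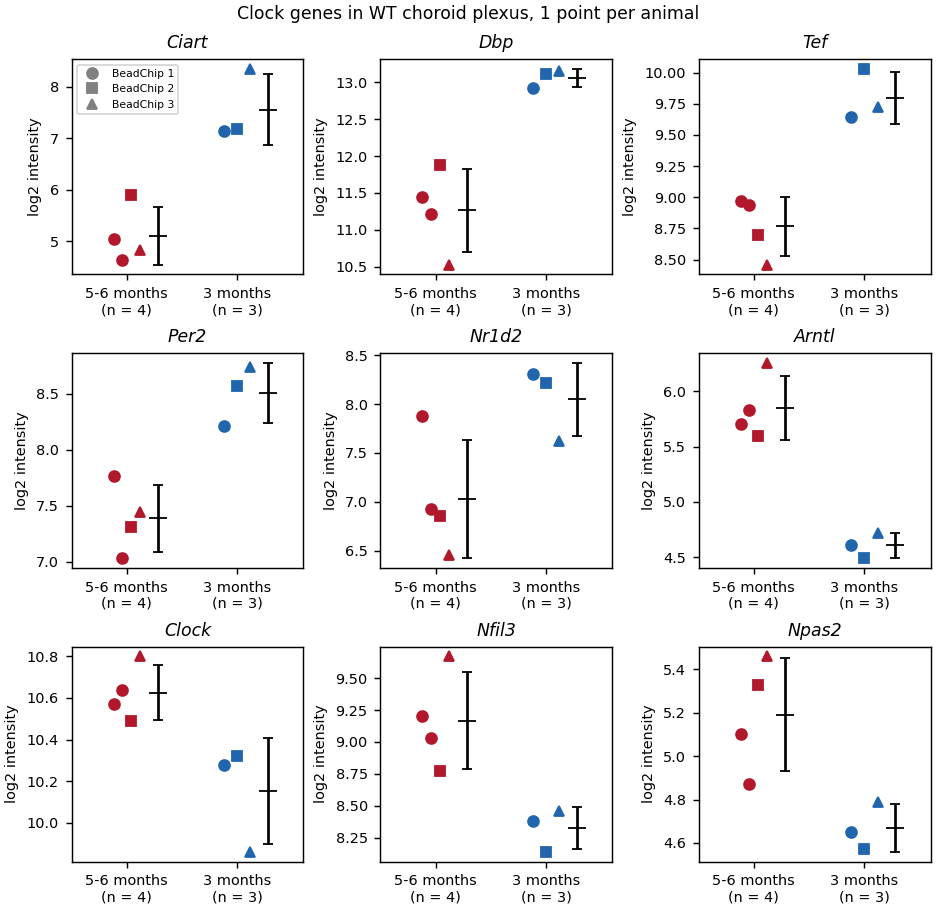
Log2 intensity (vertical axis) of 9 clock genes in WT choroid plexus. The 4 animals of 5-6 months are in red on the left and the 3 animals of 3 months in blue on the right of each panel. The marker shape gives the BeadChip assumed from the sample order, and the black bar the mean ± SD. The groups do not overlap for 8 of the genes, and for Nr1d2 animal 3 at 5-6 months (7.88) lies above animal 22 at 3 months (7.62).

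Ciart, which encodes a repressor that binds the CLOCK and BMAL1 pair, had log2 intensities of 5.04, 4.64, 5.90 and 4.84 at 5-6 months, against 7.14, 7.19 and 8.35 at 3 months. Every 5-6-month value lay below every 3-month value, and the probe was detected on 1 of 4 arrays at 5-6 months and 3 of 3 at 3 months. The difference was -2.45 (95% interval -3.37 to -1.54, limma adjusted p = 0.11). The BeadChip block gave -2.32 (adjusted p = 0.0199). Within BeadChips 1, 2 and 3 it was -2.30, -1.30 and -3.50. The other Ciart probe gave 5.31, 4.95, 5.87 and 4.85 at 5-6 months, against 6.43, 7.50 and 7.74 at 3 months, a difference of -1.98 (adjusted p = 0.11).

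Dbp encodes a PAR bZIP transcription factor that carries the clock's output to D-box genes. Its values were 11.44, 11.21, 11.88 and 10.53 at 5-6 months, against 12.92, 13.11 and 13.15 at 3 months. The groups did not overlap, and the spread was wider at 5-6 months (SD 0.56) than at 3 months (SD 0.12). The difference was -1.80 (95% interval -2.65 to -0.94, limma adjusted p = 0.507), and it was negative within each BeadChip (-1.60, -1.24 and -2.62). Tef, a PAR bZIP factor of the same family, had 8.97, 8.94, 8.70 and 8.46 at 5-6 months, against 9.64, 10.03 and 9.72 at 3 months (difference -1.03, 95% interval -1.58 to -0.48, adjusted p = 0.755).

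Per2, a core repressor, lay lower at 5-6 months without overlap on both of its probes. The brighter one had 8.40, 7.54, 7.95 and 7.90 at 5-6 months, against 8.88, 9.32 and 9.18 at 3 months, a difference of -1.18 (standard error 0.349, limma adjusted p = 1). The other gave 7.76, 7.03, 7.31 and 7.44 at 5-6 months, against 8.21, 8.57 and 8.74 at 3 months, a difference of -1.12. Per1, the paralogue of Per2, was closer: its brighter probe had 8.66, 8.19, 7.36 and 7.87 at 5-6 months, against 8.54, 8.64 and 8.72 at 3 months. Animal 3 at 5-6 months lay within the 3-month range of that probe, and the difference was -0.61 (95% interval -1.25 to 0.02). The dimmer Per1 probe did not overlap and differed by -0.46 (unadjusted p = 0.118).

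Nr1d2, a nuclear receptor that represses Arntl, had 7.88, 6.93, 6.85 and 6.45 at 5-6 months, against 8.31, 8.22 and 7.62 at 3 months, a difference of -1.02 (unadjusted p = 0.0285, limma adjusted p = 1). Its paralogue Nr1d1 overlapped, with 8.41, 9.09, 9.23 and 7.96 at 5-6 months and 8.66, 9.30 and 8.55 at 3 months on the brighter probe. Bhlhe40, a repressor that competes for E-boxes, differed by -0.45 (95% interval -0.86 to -0.04, unadjusted p = 0.0315).

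Of the 17 tested clock genes 5 lay above 0, and they are given next. The phase of the clock was not measured. Arntl had 5.70, 5.83, 5.60 and 6.26 at 5-6 months, against 4.61, 4.49 and 4.72 at 3 months, again without overlap. It was detected on 3 of 4 arrays at 5-6 months and on 0 of 3 at 3 months, so the fold is given as a bound, at least 1.15-fold higher, which takes the lowest signal of any detected probe on each 3-month array as the ceiling. The fitted difference was 1.24 (95% interval 0.52 to 1.96, limma adjusted p = 1). Clock had 10.57, 10.64, 10.49 and 10.80 at 5-6 months, against 10.28, 10.32 and 9.86 at 3 months, a difference of 0.47 (unadjusted p = 0.0048).

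Nfil3, a repressor that opposes DBP and TEF at D-boxes, had 9.20, 9.03, 8.77 and 9.67 at 5-6 months, against 8.38, 8.14 and 8.46 at 3 months, a difference of 0.84 (unadjusted p = 0.0253). Npas2, which can replace CLOCK, was near background, detected on 1 of 4 arrays at 5-6 months and 0 of 3 at 3 months, with a fitted difference of 0.52. Rora, an activator of Arntl, differed by 0.49 (unadjusted p = 0.0602). For Cry2 (-0.02), Csnk1d (-0.27 to 0.05 over its 4 probes), Csnk1e (-0.21) and Usp2 (-0.11) the groups overlapped. Per3, Cry1, Rorb, Hlf and Bhlhe41 are on the array and were too dim to be tested.

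The promoter windows of the clock genes are shown because several of the genes whose groups did not overlap are known E-box genes. The windows come from RefSeq on GRCm38.p6 and run from 250 bases before to 50 bases after each annotated start, and 14 of the 17 tested genes had at least 1 window, 22 windows in all. The E-box CACGTG, which reads the same on both strands, was found in 4 of the 22 windows (18.2%), where 7.15% of all 32851 windows hold it. Ciart had 3 copies, at 116, 58 and 44 bases before the start, a number that 0.0883% of windows reach. Tef had 1 in each of its windows, Per1 had 1, and the Dbp and Nr1d2 windows had none. The D-box TTATGTAA, searched on both strands, was in 0 of the clock windows and in 0.938% of all windows. A match is only a match of letters in this window. The Ciart window is chr3:95882179-95882478 on the minus strand, the Tef window chr15:81802423-81802722 on the plus strand and the Per1 window chr11:69098699-69098998 on the plus strand, each printed 5′ to 3′ with the E-boxes in capitals.
Ciart: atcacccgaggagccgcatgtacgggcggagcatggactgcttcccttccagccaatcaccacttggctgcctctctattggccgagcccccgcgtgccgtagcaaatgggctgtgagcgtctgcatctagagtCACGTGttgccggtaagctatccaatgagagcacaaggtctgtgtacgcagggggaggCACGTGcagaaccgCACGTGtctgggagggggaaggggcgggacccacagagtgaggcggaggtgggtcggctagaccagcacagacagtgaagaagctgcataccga
Tef: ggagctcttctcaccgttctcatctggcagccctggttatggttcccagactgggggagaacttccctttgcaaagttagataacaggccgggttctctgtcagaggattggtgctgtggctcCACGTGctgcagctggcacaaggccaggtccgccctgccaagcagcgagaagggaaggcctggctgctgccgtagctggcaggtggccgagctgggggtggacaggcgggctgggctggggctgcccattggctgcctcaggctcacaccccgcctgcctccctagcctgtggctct
Per1: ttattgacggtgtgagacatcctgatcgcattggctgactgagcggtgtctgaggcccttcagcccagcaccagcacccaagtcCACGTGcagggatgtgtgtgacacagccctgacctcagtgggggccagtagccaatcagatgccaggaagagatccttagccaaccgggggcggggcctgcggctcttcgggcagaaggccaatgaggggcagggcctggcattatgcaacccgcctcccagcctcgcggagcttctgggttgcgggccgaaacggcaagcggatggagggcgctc

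The Ciart sequence with 3 E-boxes belongs to the clock gene with the largest difference, and the Tef sequence to a gene whose groups did not overlap. The Per1 sequence belongs to a gene whose brighter probe overlapped. Dbp, whose window holds none of these letters, differed by -1.80.

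The J20 animals made the same age step on arrays that are not shared with the WT animals. Of the 17 clock genes 14 differed in the same direction in J20 as in WT, where 48% of all 8232 genes did. Cry2 is among them, at -0.02 in WT and -0.77 in J20. In J20 1 of the 17 (Clock) lay above all 3-month J20 arrays, where 1.18% of all genes did. Below all of them lay 2 (Dbp and Cry2), where 0.911% did. Dbp averaged 11.51 ± 0.88 at 5-6 months and 12.73 ± 0.17 at 3 months in J20 (SD, n = 4 each), a difference of -1.23 (95% interval -2.02 to -0.43), with no overlap between the ages. Ciart differed by -1.20 in J20, and its ages overlapped there. The age difference in WT minus that in J20 was -1.25 for this Ciart probe (95% interval -2.50 to 0.00, limma adjusted p = 0.998). Clock differed by 0.41 in J20 with no overlap, and Nfil3 by 0.78 with overlap. Arntl (0.46), Tef (-0.44), Per2 (-0.42 on its brighter probe) and Npas2 (0.15) also overlapped in J20. The WT animals of 11-12 months, which are compared with the same 3-month arrays, had Dbp at 11.32 ± 0.68 and Ciart at 5.10 ± 0.54 (SD, n = 6), close to the 5-6-month means of 11.26 and 5.11.

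Outside the clock, the higher gene with the smallest unadjusted p was Serpina1b, an alpha-1-antitrypsin gene whose product inhibits serine proteases. Its values were 5.46, 5.41, 5.61 and 6.39 at 5-6 months, against 4.68, 4.82 and 4.88 at 3 months. It was detected on 2 of 4 arrays at 5-6 months and 0 of 3 at 3 months, which gives at least 1.05-fold. The fitted difference was 0.92 (95% interval 0.48 to 1.36, limma adjusted p = 0.507), and 0.97 under the BeadChip block (adjusted p = 0.0441). Without background correction it was 0.24. The other Serpina1b probe differed by 0.60 without overlap, and by 0.59 under the block (limma adjusted p = 0.929). That probe was detected on 1 of 4 arrays at 5-6 months and 0 of 3 at 3 months. Genes of this family are near-identical, so which copy each probe reads is uncertain. The Serpina1d probe was detected on no array of either age.

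Prom2, a membrane protein of epithelial protrusions, had 6.48, 6.99, 6.57 and 7.07 at 5-6 months, against 5.45, 6.06 and 5.89 at 3 months. The groups did not overlap, and the difference was 0.98 (95% interval 0.51 to 1.45, limma adjusted p = 0.507). In J20 the same step was 1.22 (adjusted p = 0.0949). At 11-12 months WT animals stood at 8.26 ± 0.28 (SD, n = 6), above both younger groups, and the later step from 5-6 months passed the test at 1.49 (adjusted p = 0.000661). For Serpina1b that later step also passed, at 1.81 (adjusted p = 1.56e-05).

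Tlx2, a homeobox transcription factor, had 6.65, 6.76, 6.02 and 6.30 at 5-6 months, against 4.79, 6.11 and 4.91 at 3 months. Animal 15 lay among the 5-6-month values, and within BeadChip 2, where it is the 3-month array, the difference was -0.08, against 1.92 and 1.39 in BeadChips 1 and 3. Over all arrays it was 1.17 (95% interval 0.56 to 1.77, limma adjusted p = 0.725). With array weights, where animal 15 had 0.175 and the other 6 arrays 0.512 to 2.17, Tlx2 (1.47) and Leo1 (0.89) were the only probes to pass, both at an adjusted p of 0.0208.

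**Figure D2:**
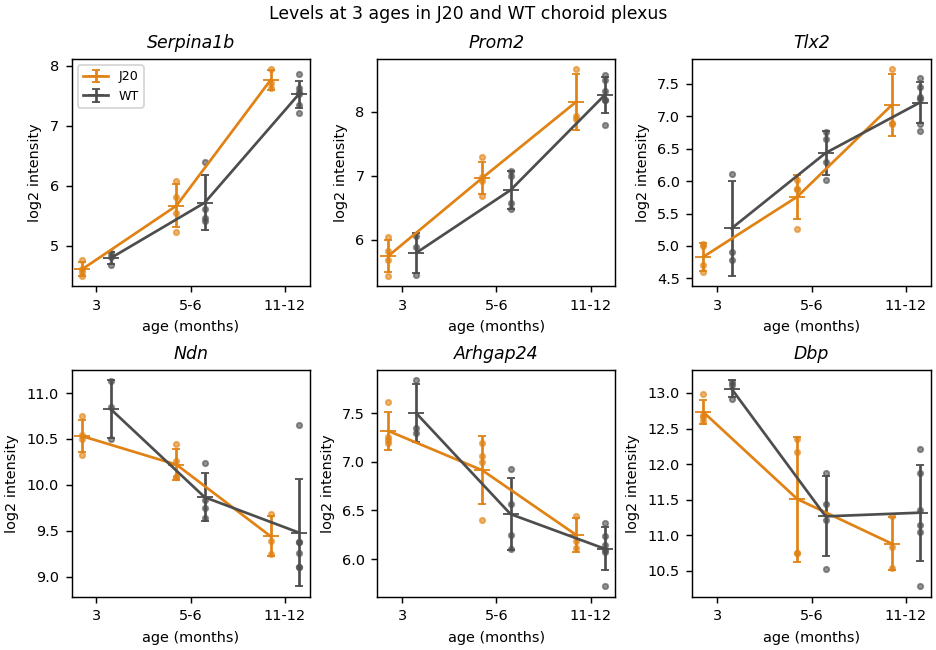
Log2 intensity (vertical axis) at 3, 5-6 and 11-12 months (horizontal axis) in J20 (orange) and WT (grey) choroid plexus; dots are animals and bars are means ± SD over 3 to 6 animals. Serpina1b and Prom2 stood higher at each later age in both genotypes, whereas Dbp in WT stood at 11.26 at 5-6 months and 11.32 at 11-12 months.

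Cdh3, which encodes P-cadherin, a junction protein, had 10.31, 10.39, 10.09 and 10.37 at 5-6 months, against 9.66, 9.85 and 9.43 at 3 months (difference 0.64, limma adjusted p = 0.507). Its other probes differed by 0.65, 0.56 and 0.07, the last of them dim and overlapping. Leo1, a subunit of the PAF1 transcription elongation complex, differed by 0.69, with 0.07 within BeadChip 2. Sorl1, a sorting receptor that traffics the amyloid precursor protein, had 6.98, 7.26, 7.61 and 7.41 at 5-6 months, against 6.53, 6.60 and 6.52 at 3 months (0.76, adjusted p = 1). Gtf2f2, a subunit of the general transcription factor TFIIF, differed by 0.51 without overlap, and Nol4, a nucleolar protein, by 0.84 with overlap.

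On the lower side Arhgap24, a GTPase-activating protein for Rac, had 6.25, 6.10, 6.93 and 6.57 at 5-6 months, against 7.35, 7.30 and 7.84 at 3 months. The groups did not overlap, and the difference was -1.04 (95% interval -1.47 to -0.60, limma adjusted p = 0.27). Pcdh7, a protocadherin, had 8.73, 8.56, 8.19 and 8.12 at 5-6 months, against 9.29, 9.08 and 9.16 at 3 months (-0.78, adjusted p = 0.725). In J20 the Pcdh7 step was -0.81, and its adjusted p in WT was 0.0578 with the BeadChip as a block. The dimmer Pcdh7 probe overlapped in WT, with a difference of -0.73, and in J20 it differed by -0.08.

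Ndn, an imprinted gene that encodes the growth suppressor necdin, had 9.83, 10.24, 9.64 and 9.75 at 5-6 months, against 10.85, 11.13 and 10.50 at 3 months (-0.96, limma adjusted p = 1). Of the 13 tested imprinted and growth genes Ndn was the only one whose groups did not overlap, where 2.82% of all genes did not. The list median was 0.07. Castor1, an arginine sensor of the mTORC1 pathway, differed by -0.75, Eva1b by -0.59 and Wdr45, an autophagy protein, by -0.43, each without overlap. Fuca1, the lysosomal fucosidase, was detected on 0 of 4 arrays at 5-6 months and 2 of 3 at 3 months, and in J20 it differed by 0.13.

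**Figure D3:**
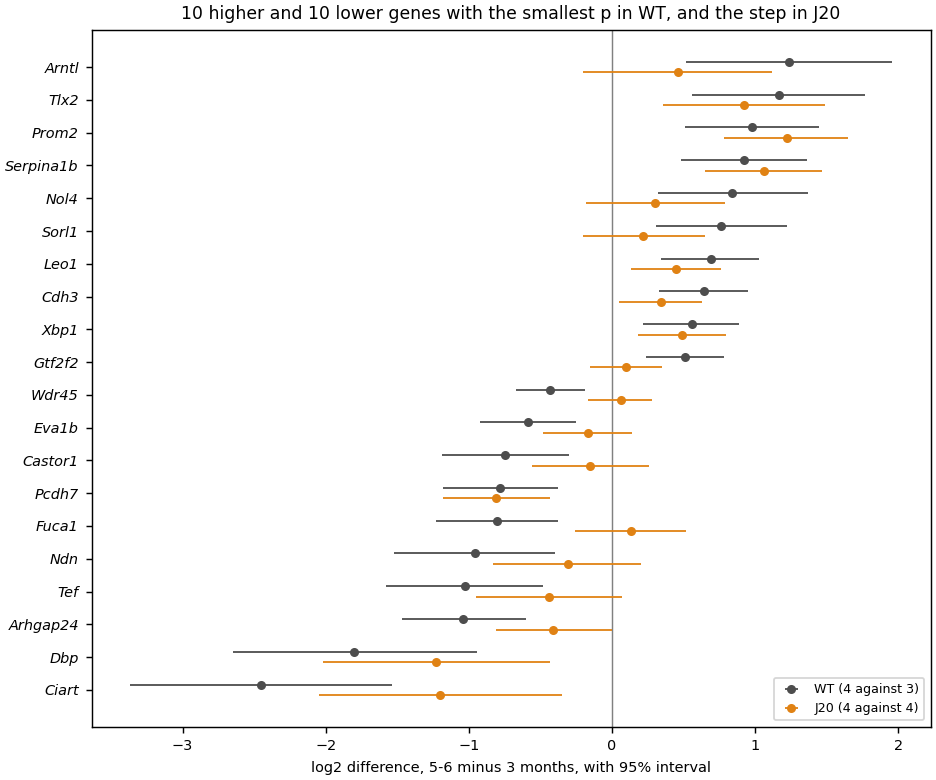
Log2 difference between 5-6 and 3 months (horizontal axis, with limma 95% intervals) for the 10 higher and 10 lower genes with the smallest p in WT, in WT (grey, the comparison that chose them) and in J20 (orange). Of the 20 genes 18 lie on the same side of 0 in J20, and Wdr45 (0.06) and Fuca1 (0.13) lie on the other.

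The genes whose ages did not overlap were then set beside the J20 animals. Of the 101 genes higher in WT, 15 were also higher without overlap in J20, which is 14.9% of the WT genes and 15.5% of the 97 J20 genes, where 1.18% of all genes had that in J20. Of the 131 lower genes, 11 were also lower without overlap in J20, 8.4% of the WT genes and 14.7% of the 75 J20 genes, against 0.911% of all genes. None (0 and 0) were without overlap in the opposite direction in J20. No source used here says whether WT and J20 animals of 1 age were dissected together.

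The 15 shared higher genes were Serpina1b, Prom2, Leo1, Xbp1, Clock, Slc16a6, Creld2, Dipk1c, Celf1, Spcs3, Rdh11, Agfg2, Gprc5c, Hnrnpc and Wwp1. Among them Creld2 and Spcs3 encode proteins of the endoplasmic reticulum, and Xbp1 encodes a transcription factor. Slc16a6, a monocarboxylate transporter family member, differed by 0.58 in WT and 0.32 in J20, and Rdh11, a retinol dehydrogenase, by 0.33 and 0.29. The 11 shared lower genes were Dbp, Pcdh7, Tctex1d4, Coq6, Klhl30, Etv3, Otub1, Amdhd2, Tnfrsf4, Denr and Rad23b. Coq6, a monooxygenase of coenzyme Q synthesis, differed by -0.32 in WT and -0.26 in J20, and Tctex1d4, a dynein light chain, by -0.68 and -0.46.

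The test of the difference between the genotypes' age steps called 0 of 11464 probes in limma (0%, smallest adjusted p 0.998), and 160 probes (1.4%) had an unadjusted p under 0.05. Of the 10 higher and 10 lower genes with the smallest p, the interval of that difference excluded 0 for Fuca1 (-0.94, 95% interval -1.51 to -0.36), Arhgap24 (-0.63, -1.23 to -0.03), Wdr45 (-0.48, -0.81 to -0.15), Gtf2f2 (0.40, 0.04 to 0.77) and the other Ciart probe (-1.28, -2.30 to -0.25). None of them passed after adjustment. The genes were chosen by the WT age step, which is itself part of that difference, so these intervals are not an independent test. For Serpina1b it was -0.14 (-0.74 to 0.46) and for Prom2 -0.24 (-0.88 to 0.40).

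The list of unfolded protein response genes held 19 tested members. Its median difference was 0.14 and 16 members lay above 0, where 49% of all genes did, and 0 passed the adjusted test. Xbp1, the transcription factor that drives secretory capacity, had 12.83, 12.87, 12.46 and 13.03 at 5-6 months, against 12.07, 12.35 and 12.30 at 3 months (0.56, limma adjusted p = 1). Creld2, an endoplasmic reticulum protein induced by that response, had 10.04, 10.27, 9.83 and 11.00 at 5-6 months, against 9.30, 9.01 and 9.58 at 3 months (0.99), and its other probe differed by 1.01. Both genes lay above all 3-month arrays, where 1.23% of all genes did, and in J20 they differed by 0.49 and 1.17. Asns, the asparagine synthetase of the same response, lay below all 3-month arrays on its brighter probe (-0.34, unadjusted p = 0.268), where 1.59% of all genes did, and its other probe overlapped. The median within BeadChip 2 was -0.11, against 0.12 and 0.42 in BeadChips 1 and 3.

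Of 12 heat shock genes 9 lay above 0, with a median of 0.16 and 0 calls. Bag3, a co-chaperone of HSP70, had 11.59, 11.54, 11.36 and 11.80 at 5-6 months, against 11.23, 10.93 and 11.07 at 3 months (0.49, limma adjusted p = 1). Hsph1 differed by 0.63 and Chordc1 by 0.60, both with overlap. Without animals 15 and 10 the list median was 0.057.

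All 13 tested cholesterol synthesis genes lay above 0, with a median of 0.25 and 0 calls. Lss, the lanosterol synthase, had values from 7.96 to 8.27 at 5-6 months, against 7.31, 7.91 and 7.67 at 3 months (0.44, unadjusted p = 0.0342). The list median was 0.171 without animal 15 and 0.135 without animals 15 and 10. Animal 15 was low for Cyp51 and Sqle: Cyp51 had 8.48, 8.06, 9.10 and 9.07 at 5-6 months, against 8.13, 6.62 and 8.88 at 3 months, and the brighter Sqle probe had 11.06 to 11.73 at 5-6 months, against 11.43, 9.76 and 11.61 at 3 months. The median was 0.56 within BeadChip 2 and 0.14 and 0.13 in BeadChips 1 and 3, and -0.10 in J20.

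**Figure D4:**
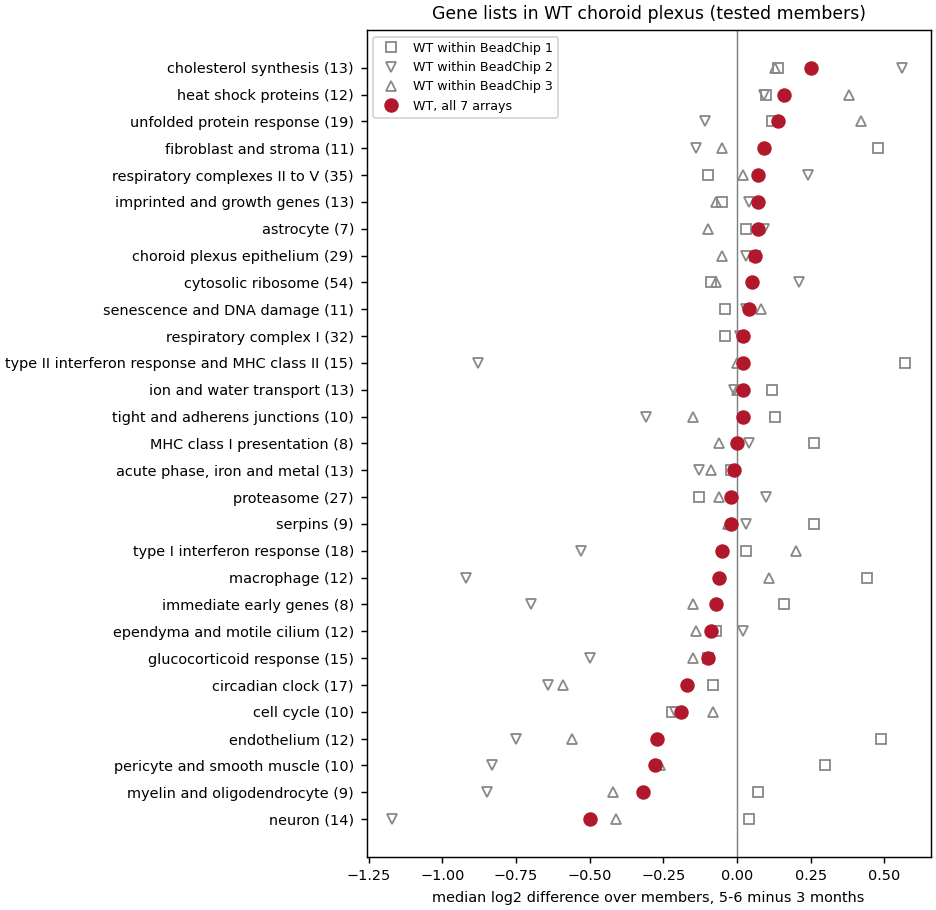
Median log2 difference, 5-6 minus 3 months, over the tested members of each gene list (horizontal axis, with the number tested in brackets). Red dots are all 7 WT arrays and open symbols each BeadChip as assumed from the sample order. Lists with 7 or more tested members are shown. Cholesterol synthesis is at the top (0.25) and neuron at the bottom (-0.50), and the BeadChip 2 values, which rest on animals 17 and 15, lie farthest from 0 for several lists.

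Of 29 tested epithelial genes 15 lay above 0 and 14 below, with a median of 0.06 and 0 calls. At the unadjusted threshold 2 were higher and 2 lower, where 1.24% and 1.34% of all genes were, and 1 lay above and 1 below all 3-month arrays, where 1.23% and 1.59% did. Otx2, the homeobox factor of choroid plexus identity, had 12.24, 12.28, 12.13 and 12.28 at 5-6 months, against 12.05, 11.40 and 11.97 at 3 months (0.43, unadjusted p = 0.0269). Slc12a2, the sodium, potassium and chloride cotransporter NKCC1, had 13.96, 14.12, 13.99 and 14.01 at 5-6 months, against 14.26, 14.30 and 14.19 at 3 months (-0.23), but its other probe differed by -0.02 with overlap. The groups also overlapped for Cox8b, a cytochrome oxidase subunit (0.46, unadjusted p = 0.0342), and for Slco1a5, an organic anion transporter (-0.46, unadjusted p = 0.0379). The 13 ion and water transport genes had a median of 0.02, and the 10 junction genes 0.02.

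Lists of markers of other cells differed in direction, and neuronal, vascular and myelin markers were highest on animal 15. In bulk tissue fewer cells of a type and less RNA per cell cannot be told apart. All 14 tested neuronal genes lay below 0, with a median of -0.50, but the mean log2 level of the list was 5.76, 6.49, 6.08 and 6.09 at 5-6 months, against 6.07, 7.12 and 6.44 at 3 months, so that the groups overlapped. The median without animal 15 was -0.137, and in J20 it was 0.52. Of the neuronal genes 5 to 10 were detected per array at 5-6 months and 7 to 12 at 3 months.

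The level of the neutrophil list separated the groups. The mean log2 level of its 4 tested genes was 4.58, 5.23, 5.46 and 4.75 at 5-6 months, against 5.83, 6.44 and 5.91 at 3 months. The list was near background, with 0, 1, 1 and 0 of the 4 genes detected at 5-6 months, against 1, 3 and 4 at 3 months. Only S100a8 and S100a9 lay below all 3-month arrays, where 1.59% of all genes did. The list median was -0.94, and it ran from -1.96 to -0.256 over the alternative settings. S100a8, a calcium-binding protein of neutrophils, had 4.53, 6.46, 6.17 and 4.93 at 5-6 months, against 7.77, 7.53 and 7.15 at 3 months (-1.96, 95% interval -4.13 to 0.21, limma adjusted p = 1). S100a9, its partner, was detected on 0 of 4 arrays at 5-6 months and 2 of 3 at 3 months. In J20 the list median was 0.33.

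Of 12 endothelial genes 11 lay below 0 (median -0.27), and 10 of 10 genes of pericytes and smooth muscle did (median -0.28), but within BeadChip 1 both were above 0, at 0.49 and 0.30. Without animal 15 the medians were -0.093 for the endothelial and -0.022 for the pericyte list. Of 9 myelin genes 7 lay below 0, and Mag, a myelin glycoprotein, had 5.72, 6.44, 5.68 and 5.59 at 5-6 months, against 6.51, 7.36 and 6.62 at 3 months. Macrophage genes had a median of -0.06. Of 11 fibroblast and stroma genes 8 lay above 0 (median 0.09), and of 7 astrocyte genes 4 did (0.07). The hormones Gh and Prl varied between animals at both ages: Gh had 4.76, 6.89, 7.86 and 4.64 at 5-6 months, against 7.31, 5.85 and 8.33 at 3 months. The part of these cells in the differences above was not tested.

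**Figure D5:**
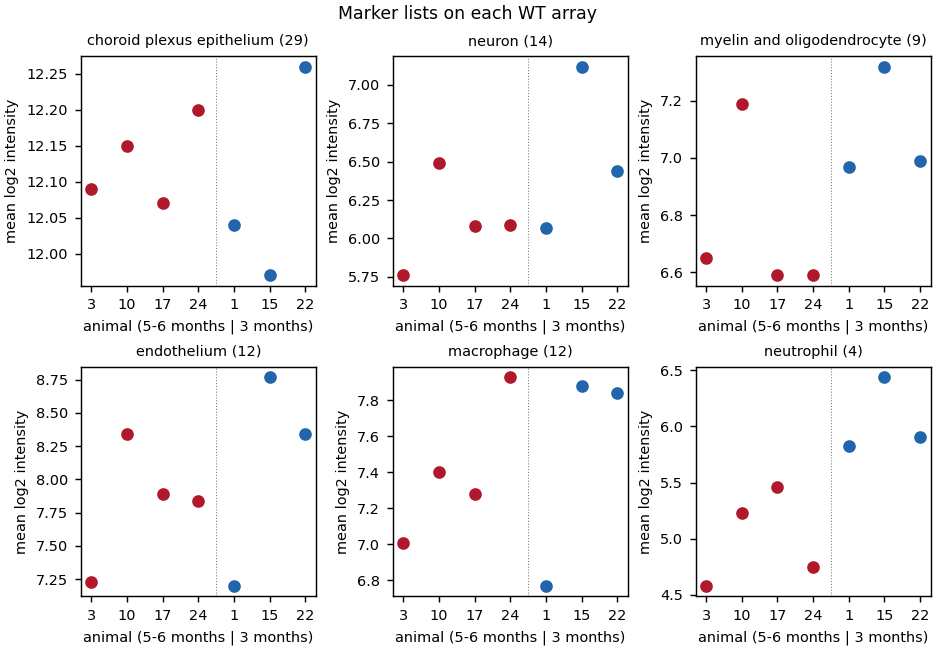
Mean log2 intensity (vertical axis) of 6 marker lists on each WT array, with the animals of 5-6 months in red on the left and those of 3 months in blue on the right of the dotted line; the number of tested genes is in brackets. Neuron, myelin and endothelium are highest on animal 15, and the neutrophil list is higher on all 3-month arrays (5.83 to 6.44) than on the 5-6-month arrays (4.58 to 5.46).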

How the data were processed

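Total RNA of choroid plexus was hybridised as biotin-labelled cRNA to Illumina bead arrays, per the labels' protocols. The authors deposited, per the file headers, 1 linear probe intensity per array without normalization and a detection p-value beside it. The series matrix deposited with them holds log2 values, which equal the quantile-normalized log2 of those intensities to within 5e-09. No source used here gives the scanner or summary software. Of 25697 probes 23978 had 1 symbol.

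The neqc function of limma 3.58.1 was run in R 4.3.3 (offset 16, background from the detection p-values, quantile normalization, log2). The 11464 probes detected (p under 0.01) on 3 or more of 24 arrays were tested. Every comparison came from 1 limma fit of 24 arrays, 1 mean per group, with Benjamini-Hochberg adjustment over all tested probes and a threshold of 0.05. Gene lists are described by counts and medians, with 1 probe per gene, the brightest. The number of arrays limits the precision. The depth measures were compared by exact permutation tests. Alternatives were the BeadChip as a fixed or random block, the series matrix, no background correction, offset 50, other filters, the 7 arrays alone, array weights, a prior trend and leaving out each array.

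The members, gene lists and named genes were chosen with earlier results of these data known. Named are the 10 genes per direction with the smallest p, genes called under the BeadChip block, clock genes, epithelial markers, Xist, up to 5 members per list, and 6 genes that changed by 11-12 months. Motifs were searched with Python 3.11.15.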

Additional observations from a re-analysis of the deposited data

How the results depend on the processing

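The count of probes past the adjusted threshold in limma, 0 here, was 2 with the BeadChip as a fixed block, 1 with it as a random block (Ciart) and 2 with array weights. Leaving out each array in turn gave 0 to 3: 3 without 5-6-month animal 17 (both Ciart probes and Arhgap24, adjusted p = 0.0493 each), 1 without 3-month animal 1 (Ciart, 0.0389) and 0 otherwise. The other settings gave 0, including that without animals 15 and 10 together, which was chosen after seeing the data. The count without overlap, 295 here, was 922 with no detection filter, 399 to 1575 without 1 array and 2004 without animals 15 and 10; fewer arrays must give a higher count. Of these, 53.4% were higher without animal 15 and 35.5% without animal 22, against 45.1% with all arrays. The difference between the WT and J20 age steps had 0 calls under each setting run (the 7 arrays alone hold no J20). Over 34 genes and 18 alternatives 592 of 606 values kept their direction and side of the threshold, 7 passed it and 7 changed sign, all in clock genes near 0. With 1 array left out Cry2 ran from -0.55 to 0.27, Nr1d1 from -0.39 to 0.01, Csnk1e from -0.42 to 0.05 and Usp2 from -0.29 to 0.01, and Csnk1e was 0.06 without animals 15 and 10. The cause of these shifts was not tested. No paired analysis was possible because no title number is shared between the groups; animals were set beside each other only by BeadChip, as a block and within each.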

Other observations

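Slc40a1 and Islr (the latter from the fibroblast and stroma list above) also separated the ages without passing the adjusted test. Slc40a1, which encodes the iron exporter ferroportin, had log2 intensities of 5.78, 5.87, 6.08 and 5.36 at 5-6 months, against 6.48, 6.49 and 6.61 at 3 months (difference -0.75, limma adjusted p = 1), and it was detected on 2 of 4 arrays at 5-6 months and 3 of 3 at 3 months. Tfrc, the transferrin receptor that takes up iron, overlapped, with differences of 0.79 and 0.28 on its probes. Islr, a secreted protein of stromal cells, had 6.94, 7.52, 6.95 and 6.45 at 5-6 months, against 6.19, 6.34 and 5.63 at 3 months (0.91, limma adjusted p = 1), and in J20 the step was -0.07.

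Tsc22d3, the glucocorticoid-induced leucine zipper, had 9.46, 9.51, 8.85 and 9.16 at 5-6 months, against 9.58, 9.82 and 9.77 at 3 months (-0.48), while the 15 tested genes of the glucocorticoid list had a median of -0.10 and 0 calls. The immediate early gene Ier3 had 9.49, 9.81, 9.94 and 9.46 at 5-6 months, against 9.97, 10.96 and 10.09 at 3 months (-0.66). Of 10 cell cycle genes 9 lay below 0 (median -0.19), and the list's mean level was 6.95, 7.02, 7.15 and 7.17 at 5-6 months, against 7.27, 7.31 and 7.21 at 3 months. The lists of type I interferon genes (18 tested, median -0.05), MHC class I (8, 0.00), respiratory complex I (32, 0.02), cytosolic ribosome (54, 0.05) and proteasome (27, -0.02) had 0 calls and medians near that over all genes (-0.0042). Of the sex-linked probes, both for Xist were detected on 0 of 7 arrays, Usp9y on 0 of 7, Kdm5d and Eif2s3y on 0 of 4 arrays at 5-6 months and 1 of 3 at 3 months each, and Uty on 3 of 4 at 5-6 months and 2 of 3 at 3 months.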
